A study of Rattus norvegicus with 36 samples.

Results

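The receptors for luteinizing hormone (Lhcgr) and prolactin (Prlr) were followed in rat granulosa cells, which surround the oocyte in the ovarian follicle and make oestradiol, kept in culture. The members were all probe sets of the expression array annotated to Lhcgr or Prlr, and 5 of the 31042 probe sets met that rule: 2 for Lhcgr (1387423_at and 1369033_at) and 3 for Prlr (1370384_a_at, 1370789_a_at and 1369493_at). Each was kept on its own, because a probe set's level depends on its probes and cannot be set against that of another probe set. For each gene the probe set with the highest mean is called the leading one (1387423_at and 1370384_a_at).

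The cells came from immature Sprague-Dawley rats aged 21 to 27 days and were obtained by puncturing the ovaries with a needle. They were cultured for 24 h in 5% serum and then treated for 48 h in serum-free medium that held 0.1 µM androstenedione, the substrate from which aromatase makes oestradiol. In 12 groups of 3 arrays, cells without a stimulus (basal), with follicle-stimulating hormone (FSH, 3 ng/ml) or with cAMP (1 mM) were given 0, 1, 5 or 10 µM HPTE, a bis-hydroxy compound into which the body converts the insecticide methoxychlor. The 0.1 µM is that of the series' design text, and the sample descriptions print M in place of µM. All groups shared the strain, the age range and the androstenedione, and which form of cAMP was added is not stated in the labels. Nor do they tell whether the samples numbered 1, 2 and 3 came from separate animals or cultures, so p-values measure only the spread between these samples. All values below are log2 of the deposited array intensity, and 1 unit is a 2-fold change.

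As background, Lhcgr is a receptor with a large hormone-binding outer domain and a membrane domain that couples to Gs, so that luteinizing hormone raises cAMP in the cell that carries it. Granulosa cells of small follicles have little of it, and FSH, acting through its own Gs-coupled receptor and cAMP, is known to induce it as the follicle matures toward ovulation. Prlr is a class I cytokine receptor that signals through the kinase Jak2 and the transcription factors Stat5a and Stat5b. In rodents it supports the corpus luteum, the gland that forms from the ovulated follicle, and its transcripts start at alternative first exons and end in long and short forms.

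The RefSeq annotation of GRCr8 places Lhcgr at chr6:11415361-11480834 and Prlr at chr2:60861391-61051883. The 250 bases before the start sites given by RefSeq are shown because the transcripts of both genes rose with FSH, as described below. With cAMP only Prlr was called in the fit of all arrays. Whether the genes share control was not tested. All lie on the + strand and read 5′ to 3′, and each window overlaps the annotated span of its gene. Capitals mark matches to the 7 motifs searched on both strands. These were the GC box GGGCGG, the nuclear receptor element AGGTCA, the core TGACG of cAMP response elements, the GATA factor motif GATAA, the STAT factor motif TTCNNNGAA, the AP-1 motif TGANTCA and the TATA box TATAAA, none of which overlap in these windows.
Lhcgr, chr6:11415165-11415414: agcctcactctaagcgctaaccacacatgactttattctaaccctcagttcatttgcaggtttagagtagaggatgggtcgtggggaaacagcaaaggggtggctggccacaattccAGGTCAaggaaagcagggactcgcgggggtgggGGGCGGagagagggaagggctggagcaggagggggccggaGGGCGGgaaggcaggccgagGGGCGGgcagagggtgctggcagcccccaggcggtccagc
Prlr start 1, chr2:60861515-60861764: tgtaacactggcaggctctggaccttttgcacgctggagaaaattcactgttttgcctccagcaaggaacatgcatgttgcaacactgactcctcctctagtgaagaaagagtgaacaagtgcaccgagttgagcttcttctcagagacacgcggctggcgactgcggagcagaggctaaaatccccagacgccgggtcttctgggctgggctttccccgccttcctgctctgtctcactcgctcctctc
Prlr start 2, chr2:60909409-60909658: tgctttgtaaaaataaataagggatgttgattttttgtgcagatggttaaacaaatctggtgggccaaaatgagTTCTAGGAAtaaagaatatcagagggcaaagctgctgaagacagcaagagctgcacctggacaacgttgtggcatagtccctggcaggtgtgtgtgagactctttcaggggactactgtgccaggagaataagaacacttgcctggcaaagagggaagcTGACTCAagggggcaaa

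The Lhcgr window held 3 GC boxes, beginning 100, 60 and 40 bases before the start, and 1 AGGTCA at 133 bases. Of the 33469 RefSeq promoter windows of the same length, 30.5% held the GC box and 14.1% the nuclear receptor element. No motif matched before Prlr start 1. Before Prlr start 2, TTCTAGGAA began 176 bases and TGACTCA 17 bases from the start, and 7.67% and 6.34% of all windows held the STAT and the AP-1 motif. The cAMP response core, the GATA motif and the TATA box, found in 18.2%, 23.5% and 12.9% of all windows, matched in none of the 3. The windows were 63.2%, 55.2% and 45.6% G and C in the order printed, against a median of 51.2% over all windows. A match is a description of letters, not of a bound site.

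Among the 36 arrays, medians ran from 65.8 to 73.7 in intensity. Arrays numbered 3 stood apart in the log2 difference between the 3′ and 5′ control probe sets of Gapdh (0.77 to 1.07, against 1.61 to 2.4 for numbers 1 and 2), a sign of RNA length that was spread evenly over the 12 groups. Arrays with the same number deviated together from their group means in 26 of 27 pairs of groups. The exception was FSH against cAMP without HPTE, where the deviations of the number 2 arrays correlated at r = -0.124 over all probe sets, against 0.35 and 0.432 for numbers 1 and 3. In the leading Lhcgr probe set these 2 arrays also stood apart from their groups (5.94 with FSH and 10.04 with cAMP). In that of Prlr the cAMP array did (10.00). The FSH array (7.80) was the lowest of its group, as number 2 was at 1 and 5 µM HPTE (7.33 and 4.66). The main differences of the leading probe sets that rest on the 2 arrays are given with and without the pair. Whether the 2 arrays were exchanged was not tested. At 0 µM number 2 was the lowest FSH and the highest cAMP array for both receptors. Leaving the pair out therefore raises FSH minus cAMP, and it narrowed the residual SD (from 1.22 to 0.69 for Lhcgr). Calls without the pair show how far a result rests on it and are no independent support. The number was fitted as a block as a further alternative, and its value stands beside a receptor result where it changed the call. Over the 36 comparisons, 23 differences of the 5 probe sets were called, and several of these calls rest on few arrays. Fitting only the groups compared, which takes the spread from fewer arrays, ended 14 of the 23. Leaving out all arrays numbered 1 ended 21. Kept were those of the leading Prlr probe set for FSH against basal without HPTE and for 10 against 0 µM HPTE with FSH. Leaving out all numbered 3 ended 14.

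In basal cells both receptors were near the bottom of the array's range. Without HPTE the leading Lhcgr probe set read 5.00, 4.79 and 4.90 in arrays 1, 2 and 3, and 18.4% of all probe sets had a group mean at or below its own. The leading Prlr probe set read 4.62, 4.60 and 5.29, with 16.3% of probe sets at or below it. Over all 12 basal arrays, at any dose of HPTE, Lhcgr stayed between 4.70 and 5.28 and Prlr between 4.37 and 5.29. No detection calls were used, so a level this low may hold little or no signal of the transcript.

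FSH raised both receptors. Lhcgr read 10.27, 5.94 and 11.50 with FSH, and every FSH array lay above every basal array, although number 2 exceeded the highest basal array by far less than the others did. Its mean was 9.24 ± 2.92 (SD, n = 3) against 4.90 ± 0.11, a difference of 4.34 ± 1.00 (SE) or 20.3-fold (limma, adjusted p = 0.00416). Prlr read 9.68, 7.80 and 10.86, again with no overlap, and its mean of 9.45 ± 1.55 exceeded the basal 4.84 ± 0.39 by 4.61 ± 0.75 or 24.4-fold (limma, adjusted p = 1e-04). The second probe sets rose as well, Lhcgr by 3.00 ± 0.73 or 7.98-fold (adjusted p = 0.00741) and Prlr by 2.79 ± 0.53 or 6.91-fold (adjusted p = 0.000578). In all, 4 of the 5 probe sets rose, where 3.88% of all probe sets on the array did.

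The fifth, Prlr 1369493_at, ranged only from 4.63 to 6.06 over the 36 arrays and followed the leading Prlr probe set weakly (r = 0.316 over 36 arrays, against 0.928 for the second). Its difference of 0.62 ± 0.28 with FSH was not called (limma, adjusted p = 0.245). With the number 2 arrays of FSH and cAMP at 0 µM left out it was 0.95 and was called (adjusted p = 0.0386), so that all 5 probe sets rose, against 4.02% of the array. Without that pair the leading Lhcgr difference was 5.99, or 63.4-fold (adjusted p = 3.73e-07), and that of Prlr 5.44 (adjusted p = 4.11e-06). The Lhcgr call was lost when FSH array 3 alone was left out (3.21, adjusted p = 0.066) and when only the groups compared were fitted (adjusted p = 0.169). The call of the second Lhcgr probe set was lost without FSH array 1 (2.06, adjusted p = 0.1).

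**Figure D1:**
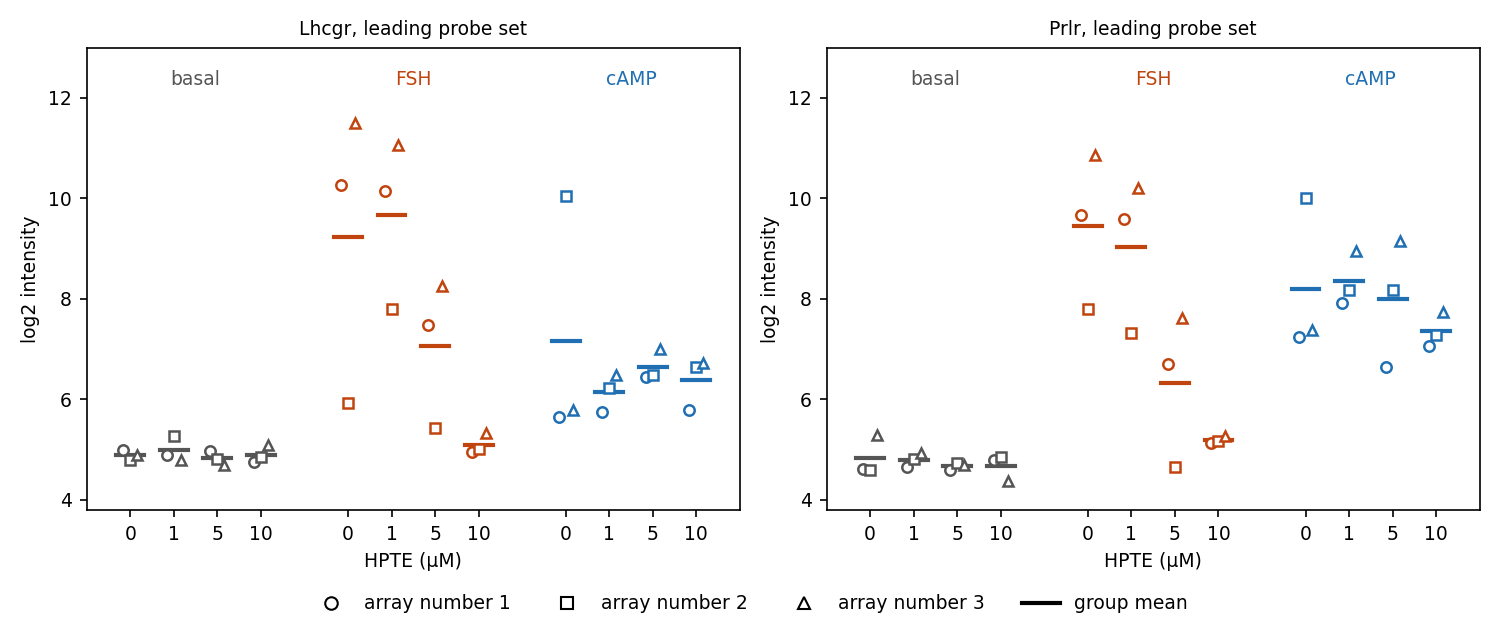
Log2 intensity of the leading Lhcgr and Prlr probe sets in each of the 36 arrays, grouped by stimulus and HPTE dose; symbols give the array number and bars the group mean. Basal arrays stay at or below 5.29 for both genes, FSH arrays fall toward that level at 5 and 10 µM HPTE, and cAMP arrays stay at 5.66 or above.

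cAMP raised Prlr, while its difference for Lhcgr was not called at any dose of HPTE in the fit of all arrays. Without HPTE, Prlr read 7.24, 10.00 and 7.38 with cAMP, all above the basal arrays, with number 2 far above numbers 1 and 3. The mean of 8.20 ± 1.55 (SD, n = 3) was 3.37 ± 0.75 (SE) or 10.3-fold above basal (limma, adjusted p = 0.00363), and without the pair of number 2 arrays the difference was 2.47 (adjusted p = 0.0246). The second Prlr probe set rose by 1.98 (adjusted p = 0.0163), a call that ended without the pair (1.25, adjusted p = 0.0656) but not without the pair and with the block (1.19, adjusted p = 0.0336). It also ended without basal array 2 or 3 (adjusted p = 0.0631 and 0.0707). Thus 2 of the 5 probe sets rose, against 2.69% of the array, and 1 of 5 without the pair, against 2.62%.

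Lhcgr read 5.66, 10.04 and 5.80 with cAMP. All 3 arrays lay above the basal range, but the mean difference of 2.27 ± 1.00 was not called (limma, adjusted p = 0.231) and rested on array 2: without the pair it was 0.83 (adjusted p = 0.54). At 5 µM HPTE, where the pair plays no part in the means, Lhcgr read 6.44, 6.49 and 7.0 with cAMP against 4.98, 4.82 and 4.70 in basal cells. That difference of 1.81 was not called with all arrays (adjusted p = 0.379) and was called once the pair no longer entered the common estimate of the spread (adjusted p = 0.0432). With only the groups compared in the fit, Lhcgr was called higher with cAMP at 1, 5 and 10 µM (1.16, 1.81 and 1.48, limma, adjusted p = 0.0253, 0.00223 and 0.0126). The differences of the second Lhcgr probe set at these doses (0.37, 0.55 and 0.45) were called neither with all arrays nor without the pair.

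Set directly against each other, the stimuli could not be ranked with all arrays. Without HPTE, FSH exceeded cAMP by 2.07 for Lhcgr and 1.24 for Prlr, neither called (limma, both adjusted p = 1). None of the 5 probe sets was called higher, and the share called higher over the array was 0%, with 1002 probe sets at an unadjusted p under 0.05. With the pair left out, 4 of the 5 probe sets were higher with FSH, against 1.44% of the array: Lhcgr by 5.16 or 35.6-fold (adjusted p = 5.71e-05) and Prlr by 2.96 or 7.8-fold (adjusted p = 0.0336). In those remaining arrays Lhcgr was at 10.27 and 11.50 with FSH, and the cAMP arrays were at 5.66 and 5.80. The arrays left out were the lowest with FSH and the highest with cAMP, so a larger difference without them was fixed in advance.

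The groups at 1 µM HPTE hold neither of those 2 arrays, which enter only through the common estimate of the spread. There Lhcgr read 10.15, 7.80 and 11.07 with FSH, while the cAMP arrays read 5.75, 6.22 and 6.48, with no overlap. The difference of 3.52 missed the threshold (limma, adjusted p = 0.139) and passed it with the array number as a block (adjusted p = 0.0438), as did that of the second Lhcgr probe set (2.72, adjusted p = 0.112, with the block 0.0354). So 0 of the 5 probe sets were higher with FSH in the fit without the block and 2 with it, where 0.309% of the array was called without the block and 1.38% with it. With the pair left out, both Lhcgr differences were called (limma, adjusted p = 0.00083 and 0.000667), 2 of the 5 probe sets against 0.78% of the array. Prlr read 9.59, 7.33 and 10.21 with FSH, a range that held all 3 cAMP arrays (7.93, 8.18 and 8.96). Its difference was 0.69 (adjusted p = 0.999).

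With rising HPTE the FSH arrays of both receptors came down toward the basal level. At 1 µM the response was still called: FSH exceeded basal by 4.68 or 25.7-fold for Lhcgr (limma, adjusted p = 0.00509) and 4.24 or 18.9-fold for Prlr (adjusted p = 0.000922), and 4 of the 5 probe sets rose, against 1.39% of the array. The Lhcgr call was lost without FSH array 3 at that dose (adjusted p = 0.0616), that of its second probe set without array 1 or 3 of either group, and that of the second Prlr probe set without FSH array 1 (adjusted p = 0.0798). The leading Prlr call held with any 1 array left out. All 4 calls were lost with only the groups compared in the fit (limma, adjusted p = 0.118 to 0.178) and without all arrays numbered 1 (0.243 to 0.624). The change from 0 to 1 µM within FSH cells was 0.44 for Lhcgr (95% interval -1.61 to 2.48) and -0.40 for Prlr (-1.95 to 1.14). Without the pair of number 2 arrays these were -1.21 and -1.23, and they were not called in either fit. Those values set numbers 1 and 3 at 0 µM against all 3 numbers at 1 µM, where number 2 was the lowest. In numbers 1 and 3 alone, Lhcgr read 10.27 and 11.50 at 0 µM and 10.15 and 11.07 at 1 µM. Prlr read 9.68 and 10.86 at 0 µM and 9.59 and 10.21 at 1 µM.

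At 5 µM the FSH arrays spread between the induced and the basal level. Lhcgr read 7.48, 5.43 and 8.26, all above the basal arrays at that dose, and Prlr 6.71, 4.66 and 7.62, with number 2 inside the basal range of 4.59 to 4.73. The differences from basal, 2.22 and 1.66, were not called (limma, adjusted p = 1 for each), nor was any of the 5 probe sets. Over the array 0.00322% were called higher, a single probe set without a gene name (1376944_at, 3.59, named after its value was seen). The 95% intervals were 0.18 to 4.26 for Lhcgr and 0.11 to 3.21 for Prlr, so a remaining response is not excluded. Without all arrays numbered 2, only the leading Lhcgr probe set of the 5 was called (3.03, limma, adjusted p = 0.0108). Number 2 was the lowest FSH array at 0, 1 and 5 µM for both leading probe sets. Number 3, the number with the smaller Gapdh difference, was the highest FSH array at 4 of 4 doses for both, but at 0 of 4 doses for the second Lhcgr and 1 of 4 for the second Prlr probe set.

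Within FSH cells, 5 µM against 0 lowered Prlr by 3.11 (log2 difference -3.11 ± 0.75, 8.66-fold, limma adjusted p = 0.00848) and its second probe set by 2.36 (-2.36 ± 0.53, adjusted p = 0.00424), so 2 of the 5 fell, against 3.08% of the array. The leading Prlr call was lost without FSH array 2 at 5 µM or FSH array 3 at 0 µM, with an adjusted p of up to 0.107. For Lhcgr the difference was -2.18 (adjusted p = 0.268). It became -3.83 and was called without the pair (adjusted p = 0.000169), when 4 of the 5 probe sets fell against 3.49% of the array. That fit keeps number 2, the lowest FSH array, at 5 µM but not at 0 µM. With number 2 left out of every group the Lhcgr difference was -3.02 (limma, adjusted p = 0.000508). From 1 to 5 µM, a step whose means use neither array of the pair, the second Prlr probe set fell (-2.08, adjusted p = 0.0407), 1 of 5 against 0.532% of the array. That call was lost in 5 of 6 fits that left out 1 array. The leading Prlr difference of -2.71 was called with the block (adjusted p = 0.0158) and not without it (0.0733), and that of Lhcgr, -2.62, in neither (0.131 and 0.301). Once the pair no longer entered the common estimate of the spread, both were called (limma, adjusted p = 0.0147 and 0.00968). In that fit 4 of the 5 probe sets fell, against 0.999% of the array.

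At 10 µM the FSH response was no longer detectable for either receptor. Lhcgr read 4.96, 5.02 and 5.33 with FSH, which overlapped the basal arrays at that dose (4.75, 4.86 and 5.10), and the difference was 0.20 (limma, adjusted p = 1). Prlr read 5.14, 5.17 and 5.27, just above the basal 4.80, 4.85 and 4.37, and its difference of 0.52 was not called either (adjusted p = 1). None of the 5 probe sets was called, and over the array 0% were called higher, with 497 at an unadjusted p under 0.05.

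Against FSH alone, 10 µM HPTE with FSH lowered 4 of the 5 probe sets, where 3.95% of the array fell. The leading Lhcgr difference was -4.13 ± 1.00, a 17.6-fold fall (limma, adjusted p = 0.00633), and every array at 10 µM was below every array at 0 µM. It was -5.78 without the pair, and the call was lost without FSH array 3 at 0 µM (-3.01, adjusted p = 0.0878) or with only the groups compared in the fit (adjusted p = 0.15). Prlr fell by 19.1-fold (-4.26 ± 0.75, adjusted p = 0.000267), and by -5.08 on the log2 scale without the pair. The second probe sets fell too, with -2.92 for Lhcgr (adjusted p = 0.00896) and -2.87 for Prlr (adjusted p = 0.000412). The second Lhcgr call was lost without FSH array 1 or 3 at 0 µM (adjusted p of up to 0.112). Without the pair the count was again 4 of 5, against 4.03% of the array.

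**Figure D2:**
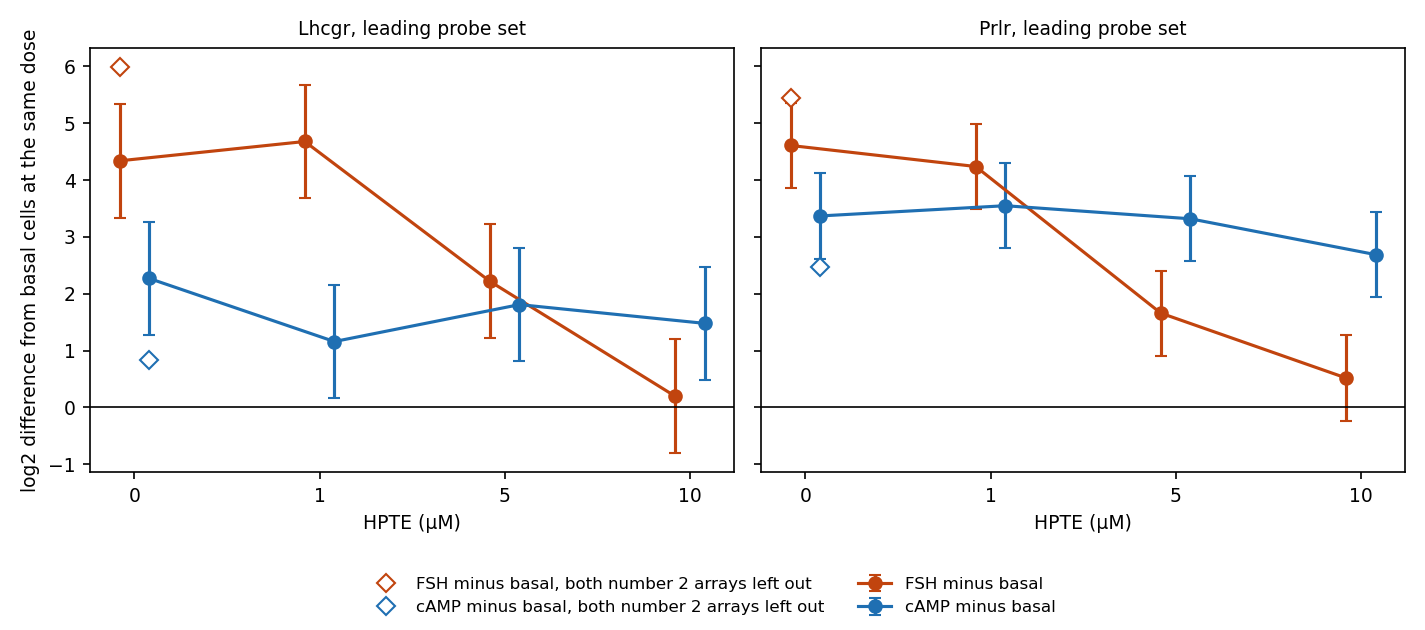
Log2 difference between stimulated and basal cells at each HPTE dose (doses evenly spaced) for the leading probe sets; points are differences of means of 3 arrays, bars 1 SE from limma, and open diamonds the value at 0 µM without the 2 arrays numbered 2. FSH differences fall from 4.34 to 0.20 for Lhcgr and from 4.61 to 0.52 for Prlr, while those of cAMP for Prlr run from 3.37 to 2.69.

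Prlr rose with cAMP at each dose of HPTE, with arrays of 7.93, 8.18 and 8.96 at 1 µM, 6.65, 8.17 and 9.15 at 5 µM and 7.07, 7.29 and 7.74 at 10 µM, none of which overlapped the basal arrays. The differences from basal were 3.55 or 11.7-fold (limma, adjusted p = 0.00181), 3.32 or 9.98-fold (adjusted p = 0.00367) and 2.69 or 6.47-fold (adjusted p = 0.027). The call at 10 µM was the weakest and was lost when any 1 of its 6 arrays was left out (adjusted p = 0.0565 to 0.106). Of the 5 probe sets, 2 rose at 1 µM against 4.24% of the array, 1 at 5 µM against 3.99% and 1 at 10 µM against 2.73%. Without the pair the count at 5 µM was 3, with Lhcgr and the second Prlr probe set, against 4.55%.

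Between 10 and 0 µM HPTE in cAMP cells, none of the 5 probe sets was called, where 1.2% of the array rose and 0.486% fell. The difference was -0.78 for Lhcgr (95% interval -2.82 to 1.26, adjusted p = 0.973) and -0.84 for Prlr (-2.38 to 0.71, adjusted p = 0.92), and both turned positive without the pair (0.66 and 0.06). The intervals hold changes of several fold, so the values do not show that HPTE left either receptor as it was. In basal cells the difference was 0.00 for Lhcgr (-2.04 to 2.05) and -0.16 for Prlr (-1.71 to 1.39), and none of the 5 was called, where 0.416% of the array rose and 0.602% fell. These intervals use the spread common to all 12 groups (residual SD 1.22 and 0.92). The basal arrays at 0 and 10 µM spread far less, with SDs of 0.11 and 0.18 for Lhcgr and 0.39 and 0.27 for Prlr.

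The difference in the HPTE effect between stimuli was tested as an interaction. Basal levels were near the bottom of the array's range without HPTE, so a fall in basal cells could hardly be seen. At 10 µM the effect in FSH cells minus that in basal cells was -4.09 ± 1.07 for the leading Prlr probe set (limma, adjusted p = 0.0365) and -2.91 ± 0.75 for the second (adjusted p = 0.0334), so 2 of the 5 were called lower, against 0.796% of the array. The leading Prlr call was lost in 10 of 12 fits that left out 1 array (adjusted p = 0.00703 to 0.145), and the second in 8 of 12. For Lhcgr the interaction was of like size, -4.14 ± 1.41, but was not called with all arrays (adjusted p = 0.158), and was called without the pair (-5.79, adjusted p = 0.000189). At 5 µM none of the 5 was called lower with all arrays, against 0.454% of the array, and 4 were without the pair, against 1.15%. Lhcgr was then at -3.77 (limma, adjusted p = 0.0112) and Prlr at -3.78 (adjusted p = 0.0215). At 1 µM none of the 5 was called in either fit.

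Effects in FSH cells minus those in cAMP cells at 10 µM were -3.35 for Lhcgr (limma, adjusted p = 0.38) and -3.42 for Prlr (adjusted p = 0.115, with the block 0.0307). Without the pair they were -6.44 (adjusted p = 5.66e-05) and -5.14 (adjusted p = 0.00173), and 4 of the 5 probe sets were called, against 2.25% of the array. At 5 µM none of the 5 was called lower with all arrays, against 0.821% of the array, and 4 were without the pair, against 1.98%. Lhcgr was then at -4.74 (limma, adjusted p = 0.00244) and Prlr at -4.62 (adjusted p = 0.00647). In a direct comparison of the stimuli at 10 µM HPTE, Prlr was higher in cAMP cells (FSH minus cAMP -2.18), which was called with the block (adjusted p = 0.0366) and not without it (0.113). It was also called without the pair (limma, adjusted p = 0.0334). None of the 5 was called lower with FSH in the fit of all arrays without the block, where 1.96% of the array was. With the block 1 was, against 1561 of 31042 probe sets, and without the pair 1, against 2.42%. For Lhcgr the FSH minus cAMP difference at 10 µM was -1.28 (adjusted p = 0.795).

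Ordered by mean level, the leading Lhcgr probe set was highest with FSH at 1 µM HPTE (9.67) and FSH alone (9.24). A gap of 2.07 separated these from cAMP alone (7.17), and it was the only gap between neighbours larger than the residual SD of 1.22. The next groups were FSH at 5 µM (7.06) and cAMP at 5, 10 and 1 µM (6.64, 6.39 and 6.15), followed by FSH at 10 µM (5.10) and the 4 basal groups (4.99 to 4.84). Prlr had a different middle. Its order was FSH at 0 and 1 µM (9.45 and 9.04), cAMP at 1, 0, 5 and 10 µM (8.35, 8.20, 7.99 and 7.37), FSH at 5 and 10 µM (6.33 and 5.19) and the basal groups (4.84 to 4.67). Only the gaps on either side of FSH at 5 µM, 1.04 and 1.14, exceeded the residual SD of 0.92.

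The order changed without the pair of number 2 arrays. Lhcgr was then highest with FSH alone (10.89) and next with FSH at 1 µM (9.67), and the gaps above and below the latter, 1.21 and 2.62, were the only ones between neighbours larger than the residual SD of 0.69. cAMP alone came down to 5.73, the lowest of the 4 cAMP groups. Prlr was at 10.27 with FSH alone, and cAMP alone (7.31) was again the lowest cAMP group. Gaps larger than its residual SD of 0.76 were the 1.23 below FSH alone, the 0.97 below cAMP alone and the 1.14 below FSH at 5 µM. In this order FSH alone holds numbers 1 and 3, while FSH at 1 µM keeps number 2, its lowest array. The gaps of 1.21 and 1.23 between these groups thus set unlike numbers against each other.

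**Figure D3:**
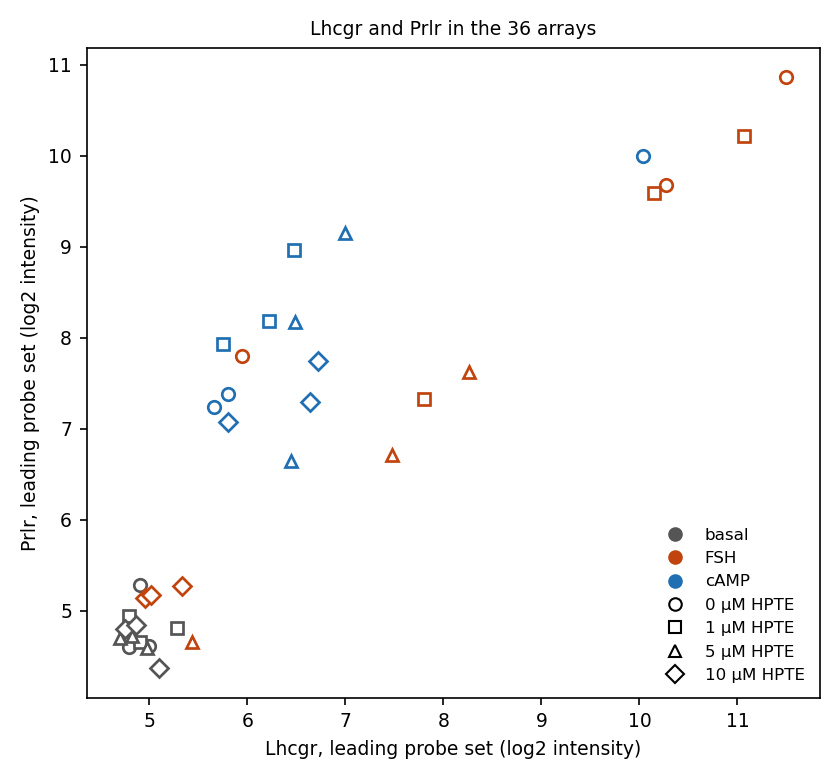
Log2 intensity of the leading Lhcgr probe set (x axis) against that of Prlr (y axis) in the 36 arrays, coloured by stimulus and shaped by HPTE dose. FSH arrays at 0 and 1 µM reach the top right, basal arrays the bottom left, and all cAMP arrays but number 2 at 0 µM have Prlr between 6.65 and 9.15 with Lhcgr between 5.66 and 7.0.

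The second Lhcgr probe set followed the first (r = 0.929 over 36 arrays). It read 4.73, 4.49 and 4.32 in basal cells, 9.38, 5.15 and 8.01 with FSH, and 5.07, 8.03 and 4.60 with cAMP, with the number 2 arrays of FSH and cAMP again at odds with their groups. With FSH it read 6.49, 4.86 and 5.38 at 5 µM HPTE and 4.60, 4.70 and 4.48 at 10 µM, the last inside the range of the basal arrays. The second Prlr probe set read 5.52, 4.97 and 4.84 in basal cells, 8.72, 6.46 and 8.52 with FSH and 6.86, 8.57 and 5.86 with cAMP. With FSH it was at 5.81, 4.83 and 5.99 at 5 µM and 5.17, 4.97 and 4.94 at 10 µM, while cAMP arrays at 10 µM kept 6.06, 6.15 and 5.68.

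**Figure D4:**
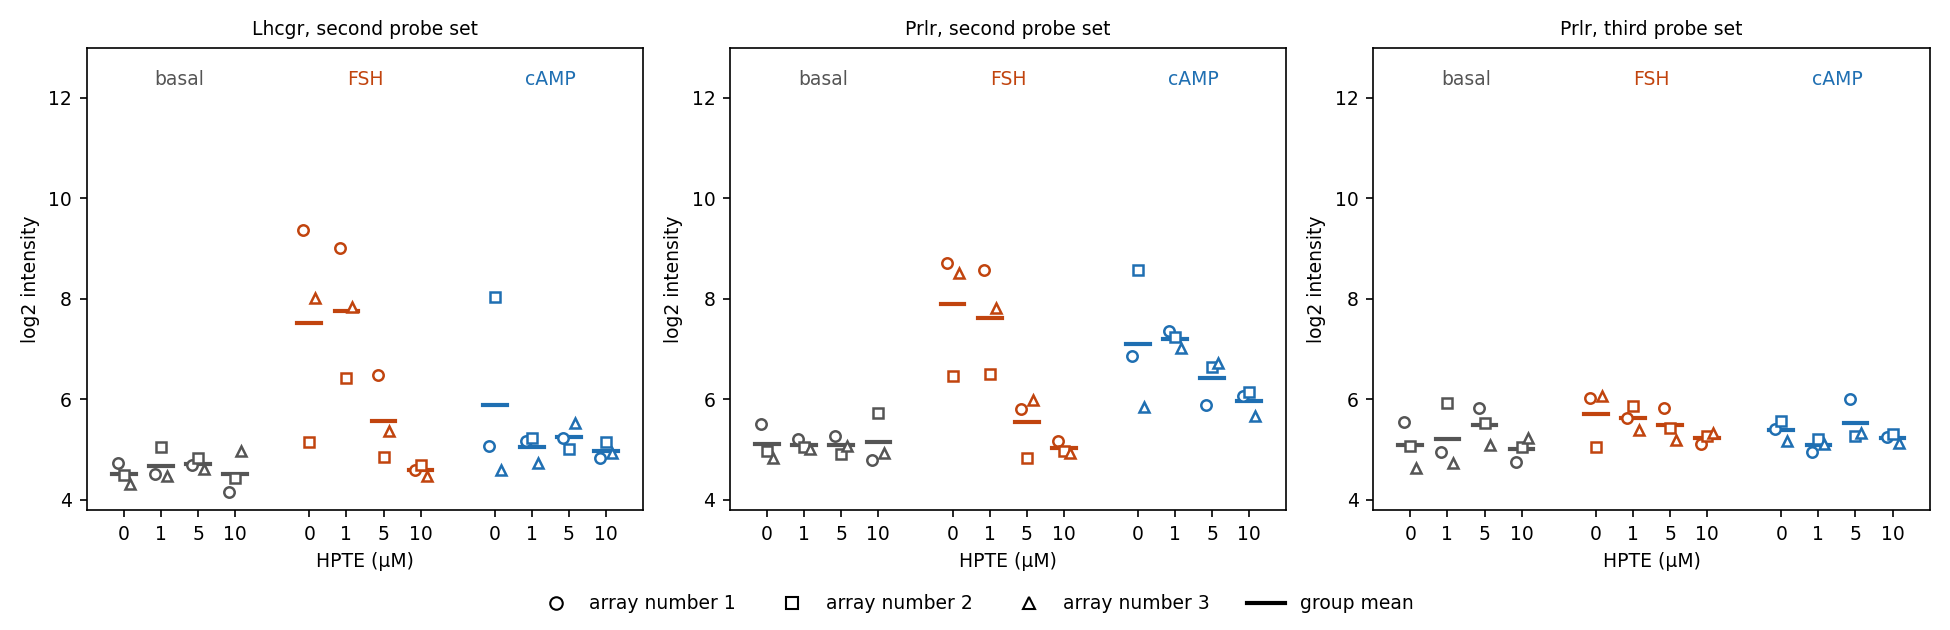
Log2 intensity of the second Lhcgr probe set and the 2 other Prlr probe sets in each of the 36 arrays, by stimulus and HPTE dose; symbols give the array number and bars the group mean. The second probe sets show the rise with FSH and its loss at 10 µM HPTE, while the third Prlr probe set stays between 4.63 and 6.06.

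The genes whose profile was most like that of Lhcgr were found by correlation over the 36 arrays, which share the 12 groups, so r is a description. Among 14216 other genes they were Sema6d (r = 0.947), Fam110c (0.946), Slc16a12 (0.940), Cyp19a1 (0.937), the aromatase that makes oestradiol, and Kitlg (0.934), the ligand of the oocyte's Kit receptor. Prlr ranked 15th in that list (r = 0.870). The least like were Mras (-0.849), Cd83 (-0.836) and Rimklb (-0.825). For Prlr the most like were Flvcr2 (0.964), Stk24 (0.960), Havcr1 (0.958), Plxnc1 (0.957) and the circadian transcription factor Npas2 (0.951), and the least like Plxdc2 (-0.916), Rell1 (-0.916) and Gypc (-0.904). Lhcgr ranked 102nd for Prlr. Within groups, after the group means were taken out, Lhcgr and Prlr still correlated at 0.888 over the 36 arrays. The spread of Lhcgr was largest in the 2 groups that hold the pair of number 2 arrays (SD 2.92 with FSH and 2.49 with cAMP at 0 µM). The within-group r was not computed without that pair, so how far it rests on the pair was not tested.

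Genes of the receptors' surroundings were read from lists, with 1 probe set per gene, in 4 comparisons. Over the array, 3.88% rose and 4.18% fell with FSH, 2.69% and 4.49% with cAMP, 4.51% and 3.95% at 10 µM HPTE with FSH, and 1.2% and 0.486% at 10 µM HPTE with cAMP. With the block the shares, in the same order, were 8.56% and 7.5%, 6.44% and 8.73%, 8.47% and 8.71%, and 3.89% and 1.95%, and genes called only with the block are named as such. Of 7 measured ligand genes, including those for prolactin itself (Prl), the LH beta chain (Lhb) and the common alpha chain (Cga), none was called with FSH, with cAMP, or with 10 µM HPTE in either. Prl stayed between 4.07 and 4.61 on all arrays. Cga had a difference of 0.46 with FSH (limma, adjusted p = 0.16), which was called without the pair (adjusted p = 0.00353), and it fell at 10 µM HPTE with FSH in the fit with the block (-0.49, limma, adjusted p = 0.0406). Of 4 measured members of the glycoprotein hormone receptor family, Lgr6 fell with FSH (-0.90) and cAMP (-0.68), Lgr5 fell at 10 µM HPTE with FSH (-0.65) and Tshr fell at 10 µM with cAMP (-0.58). With the block Lgr6 also rose at 10 µM HPTE with FSH (0.44, adjusted p = 0.0344). The FSH receptor was not analysed here.

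Among 9 other class I cytokine receptors and shared chains, Ghr, the growth hormone receptor, moved opposite to Prlr. It fell with FSH (-1.77 ± 0.33, limma, adjusted p = 0.000424) and with cAMP (-2.07 ± 0.33, adjusted p = 6.07e-05) and rose at 10 µM HPTE with FSH (1.95 ± 0.33, adjusted p = 0.000126). Il6st, the shared chain gp130, rose with cAMP (0.55, adjusted p = 0.0421). The other 7 were not called in these comparisons, but with the block Il11ra1, the interleukin 11 receptor, fell at 10 µM HPTE with FSH (-0.38, adjusted p = 0.0298) and Il6r, the interleukin 6 receptor, rose at 10 µM HPTE with cAMP (0.54, adjusted p = 0.0228). The list medians lay near 0 in all 4 comparisons (-0.06 with FSH and 0.08 at 10 µM HPTE with FSH, against -0.01 over the array in both).

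The next list held genes that couple the LH receptor to cAMP or to phospholipase C, act below cAMP, or switch the receptor off. Of its 30 measured genes, 2 rose and 1 fell with FSH, against 3.88% and 4.18% of the array. Prkar2b, a regulatory subunit of protein kinase A (0.92 ± 0.14), and Adcy9, an adenylyl cyclase (0.82 ± 0.24), rose, and Plcb1, a phospholipase C, fell (-1.24 ± 0.39). With 10 µM HPTE and FSH, Prkar2b fell (-1.21 ± 0.14) and Plcb1 rose (1.25 ± 0.39). The Adcy9 and Plcb1 calls with FSH, and the Plcb1 call with HPTE, were lost without the pair (limma, adjusted p = 0.0536, 0.215 and 0.206). With cAMP, Prkar2b rose, and Plcb1 and Gnas, which encodes the Gs alpha subunit, fell (-1.52 and -0.53). The arrestins Arrb1 and Arrb2 were not called in any of the 4. With the block the counts were 4 higher and 2 lower with FSH, 3 and 3 with cAMP, and 2 and 3 at 10 µM HPTE with FSH. The genes added were Adcy6, Plcb3 and Prkar2a with FSH, Adcy9, Plcb3 and Prkar2a with cAMP, and Adcy2, Adcy6 and Grk5 at 10 µM HPTE with FSH. The median was -0.01 with FSH and 0.02 at 10 µM HPTE with FSH, against -0.01 over the array in both.

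Of 17 genes known to act on Lhcgr transcription or its messenger RNA, 5 rose with FSH, against 3.88% of the array: Nr5a1 (2.54 ± 0.23) and Nr5a2 (2.41 ± 0.53), orphan nuclear receptors of steroidogenic cells, Cebpa (2.78 ± 0.47), Sin3a (0.72 ± 0.16), a corepressor scaffold, and Foxl2 (0.48 ± 0.12), a granulosa cell transcription factor. The same 5 rose with cAMP, where the Sin3a call was lost without the pair (limma, adjusted p = 0.102). At 10 µM HPTE with FSH, 7 fell, against 3.95% of the array: these 5, the transcription factor Gata4 (-1.39 ± 0.43) and the deacetylase Hdac1 (-0.51 ± 0.13). Sp1 and Sp3, which bind GC boxes, were not called, with differences of 0.05 and -0.04 with FSH. Mvk, whose protein binds Lhcgr messenger RNA, differed by -0.05. The list's median was 0.05 with FSH and -0.15 at 10 µM HPTE with FSH, against -0.01 over the array in both. No gene of the list was called at 10 µM HPTE with cAMP, and with the block Nr5a2 was (-0.99, adjusted p = 0.00593). With the block Gata4 also rose with FSH (1.07, adjusted p = 0.0108), and Nr2f2, an orphan nuclear receptor, fell at 10 µM HPTE with FSH (-0.41, adjusted p = 0.0444).

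Downstream of the prolactin receptor, Jak2, Stat5a and Stat5b were not called, with differences of -0.05, 0.06 and -0.07 with FSH. Of 28 measured genes, 3 rose and 1 fell with FSH, against 3.88% and 4.18% of the array. The 3 were feedback inhibitors of cytokine signalling, Socs2 (1.40 ± 0.31), Socs7 (1.26 ± 0.13) and Cish (0.73 ± 0.19), while Irs2, an adaptor of the insulin receptor, fell (-1.20 ± 0.24). With the block, Stat3 (-0.71, adjusted p = 0.00674) and the phosphatase Ptpn1 (-0.56, adjusted p = 0.00406) fell as well, and without the pair the count was likewise 3. At 10 µM HPTE with FSH the same 3 inhibitors fell (-1.50, -0.96 and -0.79), and 4 genes rose, against 4.51% of the array: Irs2 (1.39), the kinases Tec (0.79) and Src (0.51), and the adaptor Shc1 (0.41, lost without the pair, limma adjusted p = 0.155). With cAMP, Socs2 and Socs7 rose and Stat3 and Irs2 fell, and the Socs2 and Irs2 calls were lost without the pair (adjusted p = 0.114 and 0.148). The median over the list was -0.03 both with FSH and at 10 µM HPTE with FSH. At 10 µM HPTE with cAMP, Stat3 (1.11) and Shc1 (0.52) rose and Irs1 fell (-1.06). The block added Jak2 (-0.42) and Ptpn1 (-0.64) as lower with cAMP, Stat3 (0.69) as higher at 10 µM HPTE with FSH and Src (0.44) as higher at 10 µM HPTE with cAMP.

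Of 10 measured genes known as prolactin targets or as genes of the luteinizing granulosa cell, 4 rose with FSH, against 3.88% of the array: Cyp11a1 (4.97 ± 0.79) and Hsd3b1 (3.43 ± 0.42), which make progesterone, Scarb1 (3.07 ± 0.51), which takes up cholesterol from lipoproteins, and Hsd17b7 (1.96 ± 0.44). The same 4 fell at 10 µM HPTE with FSH (-4.37, -2.05, -3.03 and -2.0) and Vegfa rose (0.56 ± 0.13). With cAMP, Cyp11a1, Hsd3b1 and Scarb1 rose and Vegfa fell (-0.42, lost without the pair, limma adjusted p = 0.158). At 10 µM HPTE with cAMP, Vegfa (0.85) and Cdkn1b (0.38) rose, and the Cdkn1b call was lost without the pair (adjusted p = 0.0593). The median over the list was 0.65 with FSH and -0.38 at 10 µM HPTE with FSH, against -0.01 over the array in both. With the block, Ccnd2, a cyclin of dividing granulosa cells, also rose with FSH (1.14, adjusted p = 0.000872) and with cAMP (0.97, adjusted p = 0.00468), Hsd17b7 rose with cAMP (1.27, adjusted p = 0.029) and Vegfa fell with FSH (-0.35, adjusted p = 0.0285). These genes also respond to FSH by routes other than prolactin, and their part in the receptor's pathway was not tested.

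Among 16 other hormone and growth factor receptors of the granulosa cell, Egfr, the receptor for epidermal growth factor, rose with FSH (2.80 ± 0.28) and fell at 10 µM HPTE with FSH (-2.73 ± 0.28). Bmpr2 rose with FSH (1.07 ± 0.31, lost without the pair, limma adjusted p = 0.0711), and Nr3c1, the glucocorticoid receptor, fell (-0.64 ± 0.18). At 10 µM HPTE with FSH, Nr3c1 (0.76) and Igf1r (0.51) rose. With cAMP the calls were Egfr and Bmpr2 higher and Nr3c1 lower, and no gene was called at 10 µM HPTE with cAMP. With the block Bmpr2 fell at 10 µM HPTE with FSH (-0.86, adjusted p = 0.0157), Egfr at 10 µM HPTE with cAMP (-0.96, adjusted p = 0.0247) and Acvr2a, an activin receptor, with cAMP (-0.81, adjusted p = 0.00736). The median was -0.02 both with FSH and at 10 µM HPTE with FSH, against -0.01 over the array.

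As a list, markers of the granulosa cell were higher with FSH and with cAMP, and lower with FSH at 10 µM HPTE than with FSH alone. Lhcgr was not called with cAMP, so the list did not follow it there. The list holds Cyp19a1, one of the genes most like Lhcgr, and Nr5a2 and Foxl2, already counted above. The mean level of 7 measured granulosa markers lay without HPTE between 8.83 and 9.02 in basal arrays, 10.09 and 10.79 with FSH, 10.09 and 10.88 with cAMP, and it lay between 8.69 and 9.26 with FSH and 10 µM HPTE. Of these, 5 rose with FSH and with cAMP, against 3.88% and 2.69% of the array, and 5 fell at 10 µM HPTE with FSH, against 3.95%. In bulk RNA, fewer cells of a type and less RNA per cell cannot be told apart. Of 5 theca and interstitial markers, Cyp17a1 rose with FSH (1.28 ± 0.40, limma, adjusted p = 0.0453) and fell at 10 µM HPTE with FSH (-1.32 ± 0.40, adjusted p = 0.0369). The list's mean level ranged without HPTE from 5.96 to 6.18 in basal arrays, 5.84 to 6.73 with FSH and 5.59 to 6.25 with FSH and 10 µM HPTE.

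Of 7 macrophage and leukocyte markers, Cd14 fell with FSH (-1.51) and with cAMP (-1.43) and rose at 10 µM HPTE with FSH (1.43). With the block Cd14 also rose at 10 µM HPTE with cAMP (0.93, limma, adjusted p = 0.00593), and Cd68 fell with cAMP (-1.06, adjusted p = 0.037). Their mean level without HPTE was 5.49 to 6.35 in basal arrays, 5.12 to 5.75 with FSH and 5.47 to 6.25 with FSH and 10 µM HPTE. No marker of endothelium, oocyte or ovarian surface epithelium (5 measured each) was called in these 4 comparisons, and with the block or without the pair at most 1 of each list was (with the block Tek at -1.22 and Gdf9 at 0.72, both at 10 µM HPTE with FSH). RMA values have no true zero, so no marker reads 0, and the part of other cell types in the receptor values was not tested.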

How the data were processed

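Per the labels, 40 ng RNA from each sample went through NuGEN Ovation amplification onto Affymetrix rat expression arrays. The deposited values are linear intensity after RMA, per the submitters' processing notes; software versions: not given in the sources used here. They were converted to log2 without further normalization. Titles gave the group and number of each sample, and probe sets were named through the platform annotation. No pair of arrays within a group held identical values.

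Limma 3.58.1 in R 4.3.3 was fitted to 12 group means (24 residual degrees of freedom) for 36 comparisons, two-sided, with Benjamini-Hochberg adjustment over 31042 probe sets in each comparison and a threshold of 0.05. For lists, the probe set with the highest mean stood for a gene. Genes were named as all member probe sets, called or listed genes, and the 5 most and 3 least alike by correlation. Members and lists were chosen with earlier results of these data known. Alternatives were a replicate block, quantile normalization, a filter on dim probe sets, an offset of 32, only the groups compared, and arrays left out. Their number, 3 per group, limits the precision. The fit was tested on simulated data.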

Additional observations from a re-analysis of the deposited data

Results flagged for a closer look

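The effect of 10 µM HPTE differed between FSH and basal cells for both responsive Prlr probe sets in limma's interaction test. The difference of effects was -4.09 for 1370384_a_at (adjusted p = 0.0365) and -2.91 for 1370789_a_at (adjusted p = 0.0334). Basal means without HPTE were already low (4.84 and 5.11), so a fall in basal cells could hardly be seen and the test cannot show its absence. The calls were lost in 10 of 12 and 8 of 12 fits that left out 1 array, and with an offset of 32 (limma, adjusted p = 0.0593 and 0.061).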

How the results depend on the processing

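Across 180 results, 5 probe sets in 36 comparisons, 3042 alternative values were computed with limma: 2826 stayed on the same side of the threshold, 100 lost a call, 116 gained one, and no called value changed its direction. Of the 3042, 258 changed sign, all of differences called in neither fit. Of 23 calls, fitting only the groups compared ended 14 and gained 7. It ended every call of either Lhcgr probe set, among them FSH against basal (4.34, adjusted p = 0.169) and 10 against 0 µM HPTE with FSH (-4.13, adjusted p = 0.15), and kept 9, all of Prlr. Without all arrays numbered 1, 21 of the 23 were lost, without number 3, 14, and without number 2, 1, while 26 were gained. Leaving out number 2 of FSH and cAMP at 0 µM gave FSH minus cAMP values of 5.16 for Lhcgr and 2.96 for Prlr, both called, also with the replicate block (adjusted p = 2.12e-06 and 0.0029). These arrays were the lowest with FSH and the highest with cAMP, so the rise in that difference was fixed in advance.

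With arrays or numbers left out, Lhcgr ranged from 3.21 to 5.99 for FSH minus basal, from 0.26 to 5.16 for FSH minus cAMP and from -5.78 to -3.01 for 10 against 0 µM with FSH. Prlr ranged from 2.35 to 4.01 for cAMP minus basal and from 0.12 to 2.96 for FSH minus cAMP. With the replicate block over all arrays, 5 of 180 results gained a call and none lost one; Lhcgr with FSH kept 4.34 (adjusted p = 0.00138). An offset of 32 ended the Prlr calls for cAMP at 10 µM HPTE (1.78, adjusted p = 0.146) and for the interaction of FSH and basal at 10 µM (-3.36, adjusted p = 0.0593), and for the second Prlr probe set that interaction (-2.14, adjusted p = 0.061) and 5 against 1 µM with FSH (-1.56, adjusted p = 0.0659). The filter on dim probe sets gave values for 72 of the 180 results, and 1 of these gained a call (Prlr, 5 against 1 µM with FSH, -2.71, adjusted p = 0.0448). The cause of these changes was not tested. With 3 arrays per group and basal levels near the bottom of the range, small changes of either receptor were not detectable.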
